A study of Mus musculus with 2 samples.

Results

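The 9 genes described here are the globins and erythroid genes of the newborn mouse forebrain. They are the adult alpha globins Hba-a1 and Hba-a2, the embryonic alpha-like globin Hba-x, the adult beta globins Hbb-bs and Hbb-bt, the embryonic beta-like globins Hbb-y and Hbb-bh1, and 2 erythroid genes, Alas2 and Slc4a1. They were chosen by symbol, and all 9 were found among the 43346 genes of each gene table, with 21 of the 103639 transcripts of genes. RNA longer than 200 nt was extracted by the mirVana method from the whole forebrain of 2 pups of strain B6NCrl at postnatal day 0. An input of 13 pg, given as 1 cell-equivalent, was taken through a Smart-seq protocol for each pup. The libraries of pup 1 (replicate 1) and pup 3 (replicate 2) form 1 group, so the design holds no contrast between conditions. The labels count them as separate biological replicates of different pups, but give 1 donor identifier for both. With 1 library a pup there is no test, and differences between animals and differences between libraries cannot be told apart.

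Red cells carry oxygen on haemoglobin, a tetramer of alpha-like and beta-like globin chains with a heme group in each chain. The alpha-like genes lie on chromosome 11 and the beta-like genes on chromosome 7, each cluster with its embryonic genes upstream of its adult genes. The embryonic genes are used mainly by the first red cells, made in the yolk sac. The adult genes are used by the red cells made later in the fetal liver and in bone marrow, though not by these alone. Immature red cells still hold globin mRNA. Whether the vessels were flushed of blood before extraction is not given in the sources used here.

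The adult copies within each cluster are nearly the same in coding sequence, which limits how far short reads from it can tell them apart. Over 429 coding bases Hba-a1 and Hba-a2 differed at 1 position, C381T, counted from 1 at the first base of the start codon with the Hba-a1 base first. Over 444 coding bases Hbb-bs and Hbb-bt also differed at 1 position, C417T, with the Hbb-bs base first. Both changes are silent, so each pair encodes an identical protein, of 142 residues for the alpha copies and 147 for the beta copies. The following stretches show that position in capitals, on the coding strand of each gene in build mm10, at chr11:32284303-32284383 (plus strand) for Hba-a1, chr11:32297120-32297200 (plus strand) for Hba-a2, chr7:103826666-103826745 (minus strand) for Hbb-bs and chr7:103812657-103812736 (minus strand) for Hbb-bt. All 4 lie in coding exons.
Hba-a1: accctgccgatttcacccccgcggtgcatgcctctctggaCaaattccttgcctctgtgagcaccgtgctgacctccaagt
Hba-a2: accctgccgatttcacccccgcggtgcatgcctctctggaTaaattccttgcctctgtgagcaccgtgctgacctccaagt
Hbb-bs: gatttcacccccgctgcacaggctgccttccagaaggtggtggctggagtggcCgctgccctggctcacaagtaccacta
Hbb-bt: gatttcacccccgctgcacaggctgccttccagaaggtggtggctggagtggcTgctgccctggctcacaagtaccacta

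The embryonic genes, by contrast, can be told from the adult ones almost anywhere. The same 80 coding bases of Hbb-y, at chr7:103851875-103851954 (minus strand), and of Hbb-bh1, at chr7:103841753-103841832 (minus strand), are printed with each base that differs from Hbb-bs in capitals, 18 in Hbb-y and 17 in Hbb-bh1.
Hbb-y: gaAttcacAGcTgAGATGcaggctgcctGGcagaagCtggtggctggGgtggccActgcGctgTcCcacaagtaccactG
Hbb-bh1: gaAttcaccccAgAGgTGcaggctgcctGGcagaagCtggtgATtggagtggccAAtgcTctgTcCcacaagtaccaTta

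Over the whole coding sequence, identity to Hbb-bs was 74.3% for Hbb-y and 74.1% for Hbb-bh1, and identity of Hba-x to Hba-a1 was 62.0%. The proteins of these pairs were 70.7%, 67.3% and 53.5% identical. The longest stretch shared by an adult and an embryonic gene was 22 bases in the beta cluster and 18 in the alpha cluster. A read of 100 bases therefore of coding sequence cannot match both without mismatches, whereas 281 of the 330 windows of 100 coding bases in Hba-a1 (85.2%) occur unchanged in Hba-a2. Of the 345 coding windows of Hbb-bs, 317 (91.9%) occur in Hbb-bt. None of these windows occurred in an annotated transcript of any gene outside its own pair. The window of 100 bases follows the deposited effective lengths: 455 bases for the 554-base Hba-a2-201 transcript, which is the number of such windows it holds.

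The adult globins were the most abundant of the 9 genes, and Hba-a2 stood first among them in both pups. Levels are TPM, an abundance that divides reads by transcript length and scales every library to the same total. Brackets of values after a level are the 95% credibility bounds that the authors deposited. They cover reading depth and the sharing of reads between features within 1 library, and cover neither the sampling of RNA molecules at 13 pg nor the spread between animals. The tables count reads and not molecules, so reads of 1 gene are not independent molecules. In RNA from bulk tissue, fewer red cells and less RNA per red cell cannot be told apart.

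Hba-a2 (ENSMUSG00000069917, chr11:32296489-32297298), one of the alpha globin copies, was at 693 TPM in pup 1 (bounds 659 to 702) and 1503 TPM in pup 3 (bounds 1436 to 1496). Hba-a1 (ENSMUSG00000069919, chr11:32283511-32284465), the other copy, was at 353 TPM in pup 1 (330 to 361) and 747 TPM in pup 3 (707 to 753). Both copies were higher in pup 3, by 2.17-fold for Hba-a2 and 2.11-fold for Hba-a1, and their bounds did not overlap between pups. The means were 1098 ± 573 and 550.1 ± 278 TPM (SD, n = 2), so the spread between the pups was about as large in both copies relative to their levels. The 1503 TPM of Hba-a2 lies above its own deposited upper bound. This was so for 9.36% of the 5290 genes at 10 TPM or more both in pup 3 and on average, and for 7.30% of the 6493 such genes of pup 1. The bounds go with the posterior mean TPM, which was 1467 for Hba-a2 in pup 3.

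The beta copies did not move together. Hbb-bs (ENSMUSG00000052305, chr7:103826534-103828096) was at 457 TPM in pup 1 (424 to 472) and 816 TPM in pup 3 (764 to 830), 1.79-fold higher in pup 3. Hbb-bt (ENSMUSG00000073940, chr7:103812524-103813996) was at 219.67 TPM in pup 1 (202 to 228) and 192 TPM in pup 3 (173 to 202). For Hbb-bt the pups were close, with 0.467 TPM between the lower bound of pup 1 and the upper bound of pup 3. Its sign depends on the scale: pup 3 was lower in TPM, with a log2 difference of -0.19, but higher in FPKM and in CPM (reads per total, with no length scaling), by 0.07 in both. The means were 637 ± 254 TPM for Hbb-bs and 206 ± 19.5 TPM for Hbb-bt (SD, n = 2).

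Among 21461 nuclear protein-coding genes, Hba-a2 ranked 160th in pup 1 and 51st in pup 3. The ranks of Hba-a1 were 385 and 155, those of Hbb-bs were 285 and 139, and those of Hbb-bt were 671 and 820. The 4 adult globins together made 1723 TPM in pup 1 and 3258 TPM in pup 3, which is 0.172% and 0.326% of all TPM. In reads their share was smaller: 0.0559% of pup 1 (exact Clopper-Pearson 95% interval 0.0552% to 0.0567%) and 0.120% of pup 3 (0.119% to 0.121%). These intervals, and the others on reads, cover counting error only, with reads taken as independent.

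**Figure D1:**
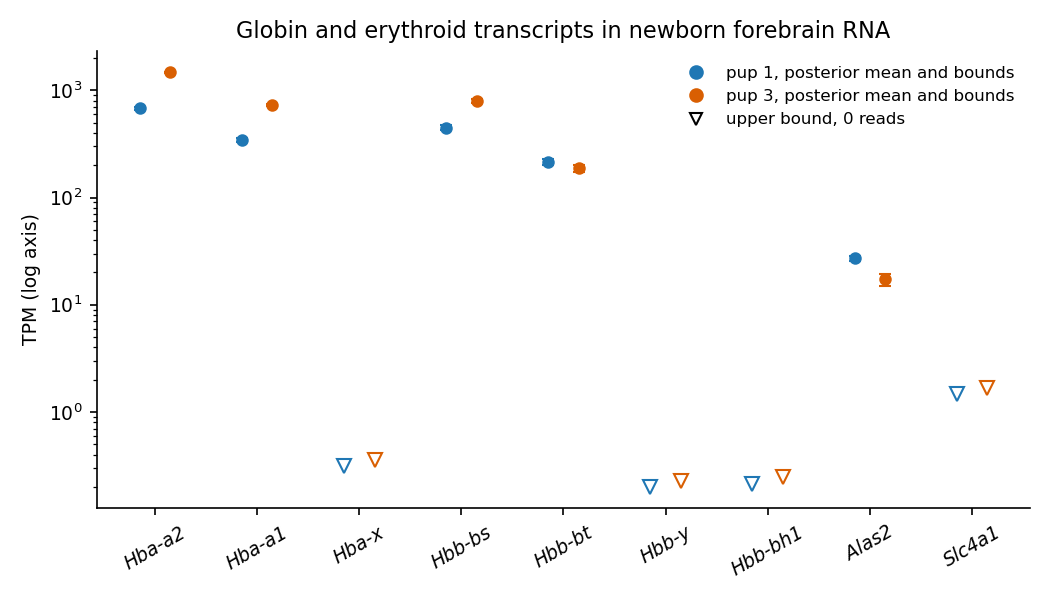
TPM (log axis) of the 9 genes in pup 1 (blue) and pup 3 (orange): points are the deposited posterior means with 95% credibility bounds, and open triangles are upper bounds of genes with 0 reads. The 4 adult globins sit above 100 TPM in both pups, Alas2 lies between 15 and 30 TPM, and the other 4 genes appear only as upper bounds.

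No embryonic globin had a read in either pup. Hba-x (ENSMUSG00000055609, chr11:32276400-32278116), an alpha-like chain of primitive red cells, had 0 reads and upper credibility bounds of 0.312 TPM in pup 1 and 0.357 TPM in pup 3. Hbb-y (ENSMUSG00000052187, chr7:103851749-103853216) had 0 reads and upper bounds of 0.198 and 0.225 TPM. Hbb-bh1 (ENSMUSG00000052217, chr7:103841637-103843164) had 0 reads and upper bounds of 0.212 and 0.246 TPM. The adult genes of the same clusters were thus found by 2688 reads or more each while the embryonic genes were not detectable at this depth. For comparison, 46.8% of all protein-coding genes had 0 reads in both pups.

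A count of 0 reads allows up to 3 reads in each library, which for Hbb-y corresponds to 0.201 TPM in pup 1 and 0.230 TPM in pup 3. Against that limit the adult beta copies together were at least 3363-fold higher than Hbb-y in pup 1 and at least 4378-fold higher in pup 3. Against Hbb-bh1 the adult beta copies were at least 3082-fold and at least 4012-fold higher. For Hba-x the deposited upper bounds given above are higher than its 3-read limit, and against them the adult alpha copies were at least 3359-fold higher in pup 1 and at least 6301-fold higher in pup 3. If the embryonic genes together had held 3 reads, they would have made 0.0131% of globin reads in pup 1 and 0.00837% in pup 3. The limits describe reads; they do not limit how many embryonic molecules failed to enter a 13 pg input.

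Alpha transcripts exceeded beta transcripts in both pups, and by more in pup 3. The alpha copies summed to 1047 TPM in pup 1 and 2250 TPM in pup 3, a mean of 1648 ± 851 (SD, n = 2). The beta copies summed to 676 and 1008 TPM, a mean of 842 ± 235. The ratio of alpha to beta was 1.55 in pup 1 and 2.23 in pup 3 in TPM, and 1.34 and 1.90 in reads. Alpha reads made 57.3% of adult globin reads in pup 1 (exact 95% interval 56.7% to 58.0%) and 65.5% in pup 3 (65.0% to 66.0%). The intervals did not overlap, but they take reads as independent, which reads of 1 gene are not. Whether the pups differed beyond the sampling of RNA molecules therefore cannot be told from them. With 1 library a pup the difference also has no replicate check.

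At the gene level, with the transcripts of each gene summed, the split within each pair behaved differently in the alpha and the beta cluster. Hba-a2 held 66.2% of alpha TPM in pup 1 and 66.8% in pup 3, close to 2 transcripts of Hba-a2 for each of Hba-a1 in both. With the bounds of the copies set against each other, those shares ran from 64.6% to 68.0% and from 65.6% to 67.9%. The pups were thus not distinguishable on these gene-level shares. Between the spliced models alone the split did differ between pups. Hba-a2-201 was at 693 (pup 1) and 1503 TPM (pup 3), and Hba-a1-201 at 201 and 166 TPM. The rest of Hba-a1 lay in its retained-intron model, Hba-a1-202, at 152 and 581 TPM. In reads the shares were 63.6% and 67.5%, and their exact 95% intervals of 62.7% to 64.4% and 66.9% to 68.1% did not overlap. Those intervals cover neither the sampling of RNA molecules nor the sharing of reads between the copies, so they do not settle whether the pups differed. The deposited effective length of Hba-a1 differed between pups, 512 bases in pup 1 and 441 in pup 3, while that of Hba-a2 was 455 in both.

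Hbb-bs held 67.5% of beta TPM in pup 1 (65.0% to 70.0% from opposed bounds) and 81.0% in pup 3 (79.1% to 82.8%). Hbb-bs was thus at 2.08 times Hbb-bt in pup 1 and at 4.25 times in pup 3. The ranges did not overlap, and in reads the shares were 64.1% and 78.3%. Within the coding sequence 1 position, C417T, separates the beta copies, and the rest of their transcripts was not compared. Which positions the deposited split rests on, and how accurate it is, was not tested.

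The uncertainty of read sharing was deposited as a posterior SD in reads, and it was the same for both members of each pair. For Hba-a1 and Hba-a2 it was 100.37 reads in pup 1 and 109.24 reads in pup 3. For Hbb-bs and Hbb-bt it was 90.62 and 91.84 reads. An error of this size is small beside the reads: 4799 and 7625 for Hba-a1, 8372 and 15850 for Hba-a2, 6290 and 9690 for Hbb-bs, and 3521 and 2688 for Hbb-bt, in pup 1 and pup 3. It came to 3.42% of reads for Hbb-bt in pup 3, the highest of the 8 values, and to 0.689% for Hba-a2 in pup 3, the lowest. By comparison the posterior SD was 0 for 69.3% of those 6493 genes in pup 1 and for 70.9% of the 5290 in pup 3. The 8 values of the adult globins were above those of 87.5% to 97.7% of genes within 2-fold of the same TPM.

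Credibility intervals of the adult globins were also wide for their level. The interval of Hbb-bt spanned 12.0% of its posterior mean TPM in pup 1 and 15.5% in pup 3, against medians of 5.77% and 6.46% for genes within 2-fold of its level. Hbb-bs spanned 10.7% and 8.23%, against 4.42% and 4.05%. Hba-a1 spanned 8.73% and 6.31%, against 4.90% and 4.11%. Hba-a2 was nearest to its neighbours, at 6.36% and 4.09%, against 3.93% and 3.27%. Each beta copy had a wider interval than each alpha copy in both pups.

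**Figure D2:**
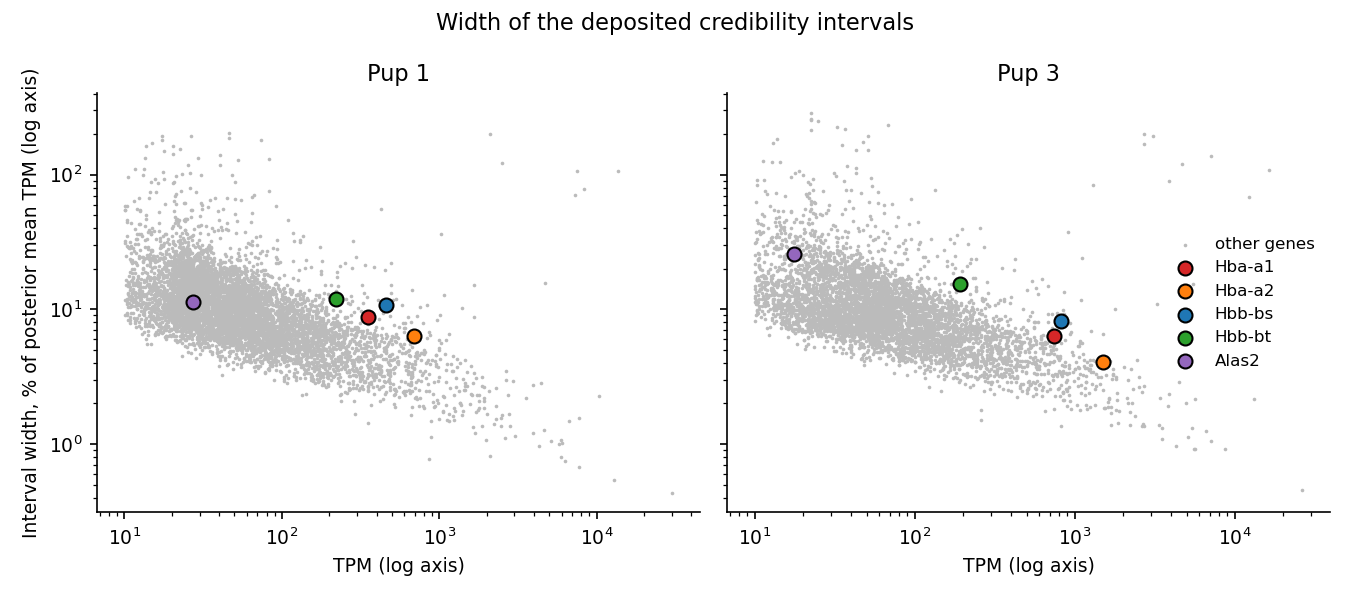
Width of the deposited 95% credibility interval as a percent of the posterior mean TPM, against TPM (both log axes), for genes at mean TPM of 10 or more that reached 10 TPM in the pup shown, 1 panel a pup; large points are the members with reads. All 4 adult globins lie in the upper part of the cloud at their level in both panels, and Alas2 does so in pup 3, at 25.8%.

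Within the alpha copies, the transcript models differ outside the coding sequence. Hba-a1-201 (699 bases) has 161 bases at its 5′ end that Hba-a2-201 (554 bases) lacks, and Hba-a2-201 has 16 bases at its 3′ end that Hba-a1-201 lacks. Each copy also has a 494-base model annotated as a retained intron, named 202, which holds 113 intron bases. Of the 600 windows of Hba-a1-201, 261 are found in 1 copy alone, 161 of them away from C381T. Of the 455 windows of Hba-a2-201, 116 are found in 1 copy alone, 16 of them away from C381T. The 202 models of the 2 copies differ at 1 base, so that 299 of their 395 windows occur in both copies and the other 96 all cover that base.

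**Figure D3:**
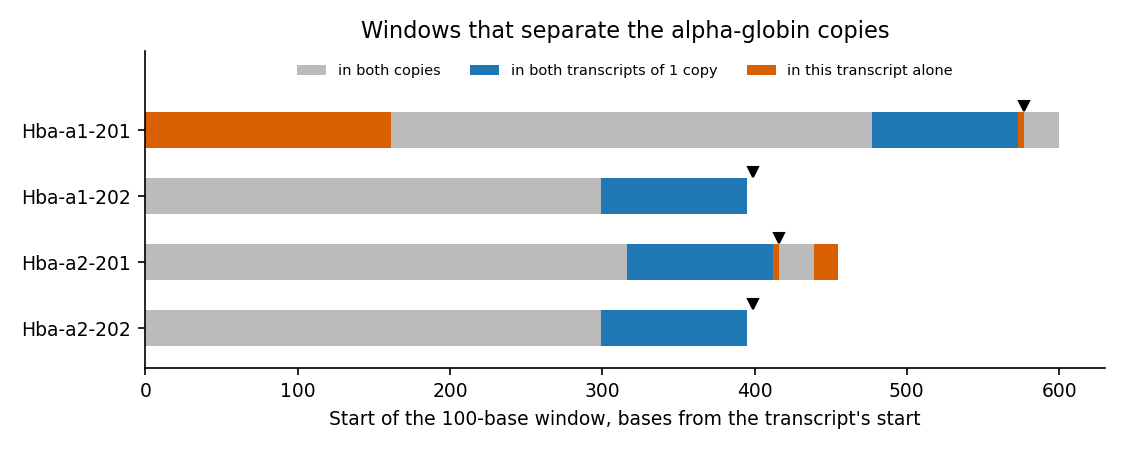
Windows of 100 bases along the 4 alpha globin transcript models, placed by their start in bases from the transcript start: grey windows occur in both copies, blue in both transcripts of 1 copy and orange in that transcript alone; triangles mark the base that differs between copies. Hba-a1-201 starts with a block of 161 windows of its own, while neither 202 model has any window of its own.

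The deposited transcript table placed all reads of the intron-retaining alpha models on Hba-a1. Hba-a1-202 was at 152 TPM in pup 1 (bounds 124 to 175) and 581 TPM in pup 3 (532 to 595), from 1594 and 5315 reads. The spliced Hba-a1-201 was at 201 TPM in pup 1 (171 to 222) and 166 TPM in pup 3 (142 to 196). So the higher level of Hba-a1 in pup 3 lay in the 202 model, which was 3.82-fold higher there, whereas the bounds of Hba-a1-201 overlapped between pups. The 202 model held 43.0% of Hba-a1 TPM in pup 1 and 77.75% in pup 3. Hba-a2-202 had 0 reads in both pups, with upper bounds of 0.864 and 0.847 TPM, although most of its windows are shared with Hba-a1-202. All Hba-a2 reads were on the spliced Hba-a2-201.

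In the beta cluster Hbb-bs had 3 transcripts with reads in both pups. Hbb-bs-201, protein-coding, was at 193 (pup 1) and 301 TPM (pup 3), 42.3% and 36.9% of the gene. Hbb-bs-202, annotated as a retained intron, was at 173 and 388 TPM, 37.9% and 47.5% of the gene. Hbb-bs-203, also protein-coding, was at 90.2 and 128 TPM, 19.8% and 15.7%. The order of the first and second transcripts was thus opposite in the 2 pups. Bounds of these transcripts overlapped in pup 1, at 173 to 207 TPM against 150 to 191 TPM, and did not in pup 3, at 273 to 319 against 354 to 403 TPM. The deposited lengths of Hbb-bs-201 and Hbb-bs-202 (778 and 549 bases) differ from those of the annotation used for names (628 and 344 bases), so the biotypes may not describe the models that were counted. Hbb-bt has 1 transcript, which held all its reads.

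**Figure D4:**
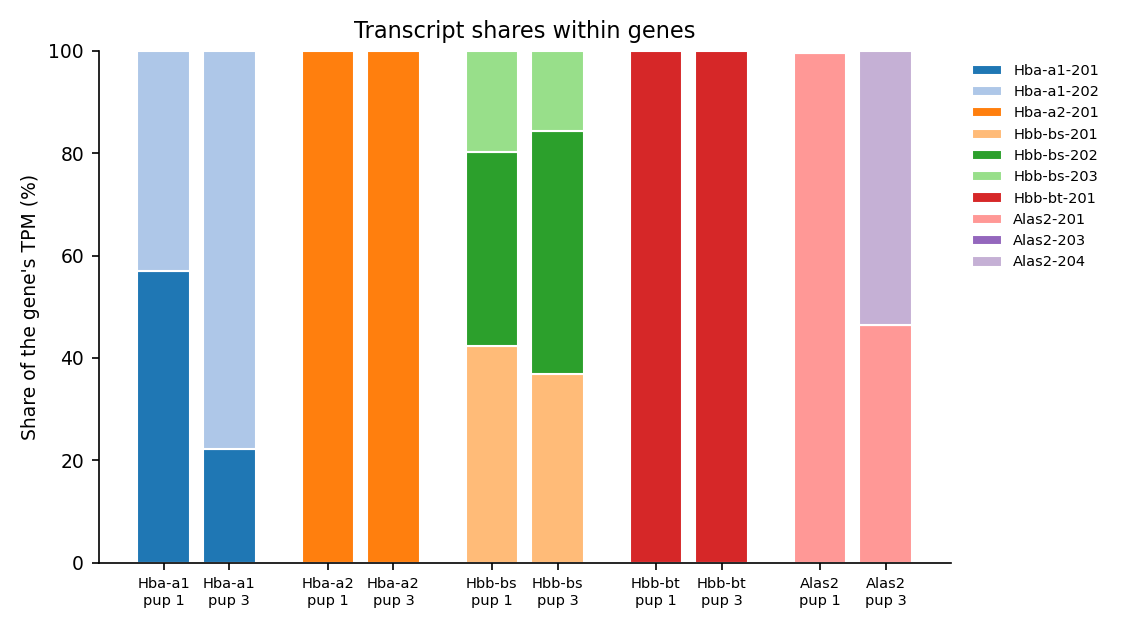
Share of each gene's TPM (%) held by its transcripts in pup 1 and pup 3, for the 5 members with reads; colours are transcripts, and those under 0.1% in both pups are left out. The 202 model of Hba-a1 holds 43.0% in pup 1 and 77.75% in pup 3, Alas2-204 holds 0 and 53.5%, and Hba-a2 and Hbb-bt are in 1 transcript in both pups.

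Alas2 (ENSMUSG00000025270, chrX:150547375-150570638), the erythroid form of the enzyme that starts heme synthesis, was higher in pup 1, unlike the alpha globins. It was at 27.1 TPM in pup 1 (bounds 25.6 to 28.7) and 17.5 TPM in pup 3 (15.1 to 19.5), a mean of 22.3 ± 6.80 (SD, n = 2). Pup 1 was 1.55-fold higher in TPM, and 2.16-fold higher in CPM, from 1390 reads in pup 1 and 468 in pup 3. For each 1000 TPM of adult globin there were 15.8 TPM of Alas2 in pup 1 and 5.38 TPM in pup 3. The sharing of reads with other genes was small, with posterior SDs of 0.24 and 0.40 reads.

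The transcripts of Alas2 also differed between the libraries. In pup 1 the full-length Alas2-201 (2037 bases) held 99.5% of the gene at 27.0 TPM. In pup 3 it held 46.5% at 8.15 TPM (bounds 7.10 to 8.87), and the 569-base Alas2-204, annotated as a processed transcript, held 53.5% at 9.37 TPM (6.97 to 11.5). Alas2-204 had 0 reads in pup 1 and 102.06 expected reads in pup 3. The effective length of the gene, by which TPM divides the reads, was 1930 bases in pup 1 and 1153 in pup 3.

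Slc4a1 (ENSMUSG00000006574, chr11:102348824-102366203), the band 3 anion exchanger of the red cell membrane, had 0 reads in both pups. Its upper bounds were 1.46 TPM in pup 1 and 1.66 TPM in pup 3 over 5 transcripts. For the full-length Slc4a1-201 of 4545 bases alone they were 0.0251 and 0.0286 TPM. Band 3 transcripts were therefore not detectable at this depth in libraries that held 22982 and 35853 globin reads. Of all protein-coding genes 46.8% had 0 reads in both pups, so a count of 0 does not show that band 3 mRNA was absent.

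A difference between the 2 pups was common, so the members have to be read against all genes. A gene was counted as past 2-fold when log2(TPM + 1) differed by more than 1, among 7479 genes at mean TPM of 10 or more. Of all these genes 63.5% were past 2-fold, and 25.7% were past 2-fold and higher in pup 3. Of the 9 members 5 reached that level, and 2 of the 5 were past 2-fold, both alpha copies and both higher in pup 3. With a background this high, that count is not a result about the members. On this scale the log2 differences were 1.12 for Hba-a2, 1.08 for Hba-a1, 0.84 for Hbb-bs, -0.19 for Hbb-bt and -0.60 for Alas2. Their median was 0.84, against -0.23 over all genes tested. Credibility intervals were separate between pups in 5 of the 5 members and in 93.3% of all genes tested, so a separate interval says little about these genes.

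The median of all genes itself moved with the scaling, from -0.29 with TMM factors to 0.03 in FPKM. Relative to that median, Hba-a2 was higher in pup 3 by 1.34 to 1.43 on the log2 scale under the scalings tried, Hba-a1 by 1.17 to 1.31 and Hbb-bs by 1.06 to 1.13. Hbb-bt was above the median by 0.03 to 0.12, and Alas2 was at -1.01 to -0.37. Which members were past 2-fold depended on the scaling. In FPKM they were 3 of 5, with Hbb-bs added, against 60.8% of all genes. In CPM they were 4 of 5, with Hbb-bs added in the direction of pup 3 and Alas2 in the direction of pup 1, against 68.6% of all genes. With TMM or DESeq2 factors they were 2 of 5, Hba-a2 and Alas2, against 67.5% and 67.6% of all genes, and Hba-a1 was at 0.88 and 0.92 on the log2 scale.

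The sequence before the start of each gene was examined for motifs known from globin promoters, using the RefSeq promoter table (GRCm38.p6), which held 7 of the 9 members. The 250 bases upstream were searched on both strands for 5 motifs: the CCAAT box, the CACCC box, 2 TATA-type motifs with the letters ATATAA or ATAAAA, and the GATA-type motif GATAAG. The 2 TATA-type motifs can share letters and were counted separately. The upstream stretches of 3 genes are shown, with matches on the gene's own strand in capitals, for the most abundant alpha copy, the more abundant beta copy and a gene with 0 reads. CACCC is also present in Hbb-bs, 90 bases before the start, and in Hbb-y, 111 bases before it, in both cases upstream of the stretch shown. They lie at chr11:32296392-32296491 (plus strand) for Hba-a2, chr7:103827929-103828011 (minus strand) for Hbb-bs and chr7:103853208-103853307 (minus strand) for Hbb-y.
Hba-a2: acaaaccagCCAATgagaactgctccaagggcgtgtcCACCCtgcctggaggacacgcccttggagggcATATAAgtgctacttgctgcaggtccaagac
Hbb-bs: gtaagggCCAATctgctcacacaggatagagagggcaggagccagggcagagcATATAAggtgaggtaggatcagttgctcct
Hbb-y: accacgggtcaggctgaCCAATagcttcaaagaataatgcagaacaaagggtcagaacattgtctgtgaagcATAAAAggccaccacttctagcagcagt

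A TATA-type ATATAA lay 28 to 31 bases before the RefSeq start in Hba-a1, Hba-a2, Hba-x, Hbb-bs and Hbb-bt. Hbb-y had ATAAAA 28 bases before its start instead. For Hba-a1 the RefSeq start lies inside the gene given above, which begins at chr11:32283511, within the promoter window of chr11:32283422-32283721. The ATATAA, nearest CACCC and CCAAT of Hba-a1, 28, 60 and 88 bases before that start, therefore lie within its spliced transcript model. They fall in the 161 bases that the spliced Hba-a2 model lacks. ATATAA is found in 9.1% and ATAAAA in 17% of the 32851 promoters of the table. CCAAT lay 76 to 91 bases before the start in Hba-a1, Hba-a2, Hbb-bs and Hbb-y, each time as 1 match on the gene's own strand. Hbb-bt had 1 match on its own strand and 2 on the other. The nearest of these lay 36 bases before the start. Its strand was not recorded, so this distance cannot be set against those of the other genes. Across all promoters 33.8% hold CCAAT and 52% hold CACCC, so a single match of either is common. GATAAG, found in 6.55% of promoters, was present in each of the 4 adult globins, 182 to 209 bases upstream, and in none of Hba-x, Hbb-y and Alas2. The promoter windows of Hba-a1 and Hba-a2 were identical over the 297 bases compared, although part of the Hba-a1 window lies within its transcript model. At the gene level, with transcripts summed, the TPM of Hba-a2 was 1.96 times that of Hba-a1 in pup 1 and 2.01 times in pup 3. These matches are descriptions of letters, and binding was not measured.

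Other globin genes were low or were found in 1 pup each. Of 8 matched genes, 6 were found in neither pup at 1 TPM or more. Neuroglobin, Ngb, a globin of neurons, was at 0 (pup 1) and 34.2 TPM (pup 3). Cytoglobin, Cygb, found in fibroblast-like cells among others, was at 43.8 (pup 1) and 0.02 TPM (pup 3). Neither is a red cell gene, and their levels in the 2 pups were opposite. Mb, below 1 TPM in both pups, was at 0.22 TPM from 5 reads in pup 1 and 0.31 TPM from 7 reads in pup 3.

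Of the other genes of the red cell programme, 64 in 5 lists were matched, 20 were found at 1 TPM or more in both pups, 13 in 1 pup and 31 in neither. Of all protein-coding genes 24.8% were found in both pups and 53.6% in neither. The heme synthesis list had 4 of 11 genes in both pups and 2 in neither. Its genes act in every cell that makes heme, and their sum was 319 TPM in pup 1 and 561 TPM in pup 3. Of the 7 at mean TPM of 10 or more, 4 were past 2-fold with pup 3 higher and 1 with pup 1 higher. Of all genes tested 63.5% were past 2-fold, and 25.7% were past 2-fold and higher in pup 3. With only 7 genes, no result is drawn from this count. Alas1, the form of the first enzyme used outside red cells, was at 21.3 (pup 1) and 100.6 TPM (pup 3), the opposite order to Alas2. Fech, which inserts iron into the ring, was at 20.5 and 67.7 TPM, and Ppox, an enzyme of a late step, at 0 and 91.0 TPM. Alad, the enzyme of the second step, and Tmem14c, a mitochondrial carrier protein of the pathway, were close between pups, at 103 and 92.5 TPM and at 118 and 123 TPM.

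Of 13 transcription factors of red cell precursors, 7 were found in neither pup, as were 53.6% of all protein-coding genes, so this count is not a result about these factors. The 7 had 0 reads in both pups: Gata1, Klf1, Tal1, Nfe2, Gfi1b, Zfpm1 and Myb. The 2 found in both pups were Bcl11a, at 90.6 (pup 1) and 67.5 TPM (pup 3), and Ldb1, at 43.5 and 68.2 TPM, both of which are also used by neurons. Lyl1, a factor of blood stem cells and vessels, was at 12.5 TPM in pup 1 and 0 in pup 3. The erythropoietin receptor gene Epor, the carbonic anhydrase gene Car1 and Hemgn, a nuclear protein of red cell precursors, had 0 reads as well.

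The red cell membrane list had 3 of 16 genes in both pups and 11 in neither. The genes found, Dmtn at 86.5 and 76.3 TPM, Add2 at 86.4 and 25.7 TPM and Epb41 at 42.6 and 27.1 TPM, encode proteins of the membrane skeleton that also occur in brain. Rhag, a membrane partner of the Rh proteins, was 1 of 2 genes of the list found in pup 3 alone, at 0 (pup 1) and 41.4 TPM (pup 3). Ank1, Epb42 and Kel had 0 reads in both pups. The iron list had 3 of 7 genes in both pups: the transferrin receptor gene Tfrc at 26.2 and 60.0 TPM, Fam210b at 21.7 and 35.8 TPM, and Mpg, a DNA repair gene beside the alpha cluster, at 15.4 and 14.3 TPM. Slc25a37, the mitochondrial iron carrier of red cells, had 0 reads in both. Of all protein-coding genes 24.8% were found in both pups and 53.6% in neither, so no result is drawn from the counts of these lists.

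The list of late red cell genes had 9 of 18 genes in both pups and 9 in neither. Its highest member, the peroxiredoxin gene Prdx2, was at 959 (pup 1) and 1304 TPM (pup 3), a level like that of Hba-a2, and it is also abundant in neurons. Bnip3l, which directs the removal of mitochondria, was at 514 and 252 TPM and was past 2-fold with pup 1 higher. So were Hk1, a hexokinase gene, at 143 and 43.1 TPM, and the catalase gene Cat, at 73.7 and 23.7 TPM. Mkrn1 was at 147 and 265 TPM. Of the 9 genes of this list at mean TPM of 10 or more, 3 were past 2-fold with pup 1 higher and 1, Fech, with pup 3 higher. Of all genes tested 63.5% were past 2-fold. Of all protein-coding genes 24.8% were found in both pups and 53.6% in neither. No result is drawn from the counts of this list, whose genes did not follow the globins in 1 direction.

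**Figure D5:**
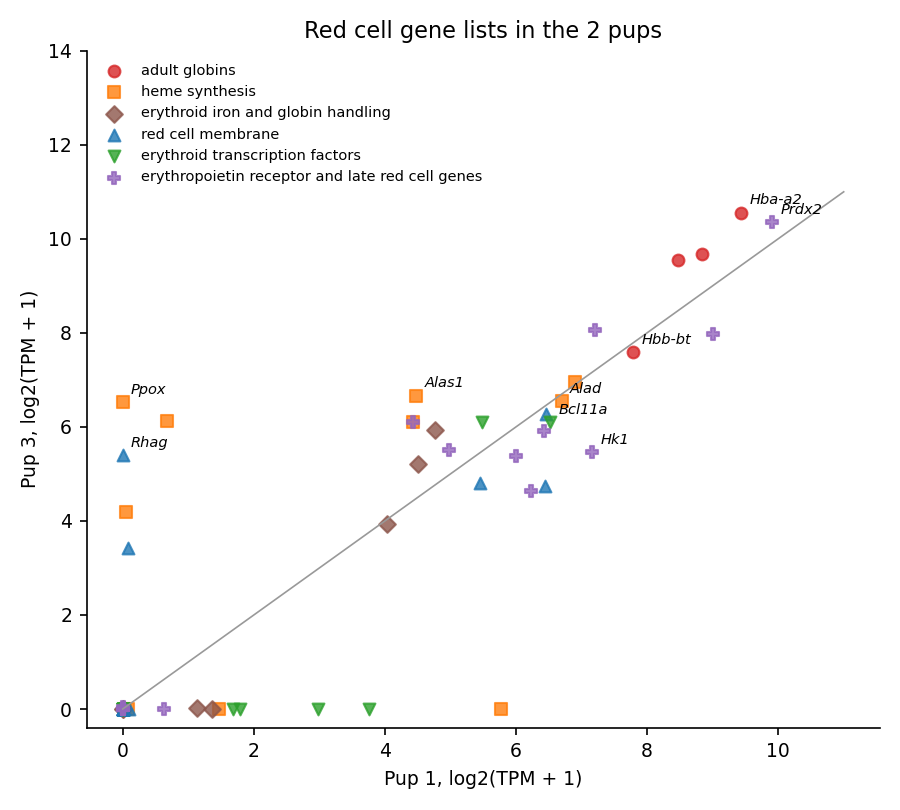
Levels of the red cell lists in pup 1 and pup 3, as log2(TPM + 1), with 1 point a gene, colours and symbols for lists and a line of equal levels. Alpha globins and Hbb-bs lie above the line and Hbb-bt just below it. Of the 64 genes of the other lists, 13 were found in 1 pup and lie on or near an axis. Another 31 were found in neither pup and lie at or near the origin.

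Markers of other blood and vessel cells also differed between the pups. Of 9 platelet and megakaryocyte genes, 2 were found, both in pup 1 alone, Pf4 at 40.9 TPM and Itga2b at 4.44 TPM; the list summed to 45.3 TPM in pup 1 and 0.28 TPM in pup 3. Of 12 leukocyte genes, 9 were found in neither pup and 2 only in pup 1, and the list summed to 213 and 159 TPM. Most of the leukocyte sum was Coro1a, at 153 and 159 TPM, and the neutrophil genes S100a8 and S100a9 had 0 reads. Genes found in pup 1 alone were common, with 3743 protein-coding genes against 905 in pup 3 alone, so markers found in that pup alone are not a result about blood. Of 13 endothelial and mural genes, 4 were found in both pups, with sums of 97.05 and 309 TPM, and the endothelial tight junction gene Cldn5 was at 41.8 (pup 1) and 82.2 TPM (pup 3). The macrophage and microglial list, 12 genes, summed to 335 and 114 TPM, with 1 gene found in both pups, and the pan-neuronal list, 8 genes, to 11128 and 5569 TPM. Of all protein-coding genes 24.8% were found in both pups and 53.6% in neither. The part of these lists in the globin levels was not tested.

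The libraries held 41082811 expected reads in pup 1 and 29881397 in pup 3, and 10096 and 6960 genes were found at 1 TPM or more. Spike-in RNA made 4.46% and 7.30% of TPM, and mitochondrial genes made 5.02% and 6.003%. A limit of 3 reads was 0.0730 CPM in pup 1 and 0.1004 CPM in pup 3. All 8 pan-neuronal genes were found in pup 1 and 7 in pup 3, which fits neural tissue and does not single out the forebrain.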

How the data were processed

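The members and lists were chosen with earlier results of these data known. The authors deposited a gene and a transcript table for each library. Expected counts, which are estimated reads with shared reads divided between features, TPM and FPKM are named in the header, per the file headers. The deposited score columns are a posterior SD of reads and 95% credibility bounds of TPM, and the deposited percent column gives each transcript's share of its gene. Deposited text names mm10 and annotation M4; of the aligner, the counter and the strand setting nothing is given in the sources used here. Names, biotypes and coordinates were taken by identifier from GENCODE M21, on the same assembly, for 42462 genes (98.0%). Spike-ins and entries that name no gene stayed out of gene counts but remain in the deposited TPM total.

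Each library's value, the mean and the SD were computed, with no test, since 1 group of 2 libraries has no contrast. Exact Clopper-Pearson intervals used reads rounded to whole numbers. The 2-fold rule used log2(TPM + 1), which understates changes of low genes, at mean TPM of 10 or more. Tested on simulated data with 200 of 7479 genes changed 4-fold, it called 100% of these and 0.0550% of the others, with counting noise only. That outcome was nearly fixed in advance at these read numbers. It checks the working of the rule and does not measure false calls in these data, where 63.5% of genes were past 2-fold. Coding sequences and windows came from GENCODE M21 transcripts. Ahsp, Eraf and Hba-ps3 did not match. Some list genes are not reported here. Genes named are the members, the other globin genes with reads, and of each list the 3 highest by mean TPM found in either pup plus those past 2-fold at mean TPM of 10 or more, at most 5; genes named at 0 reads were chosen after their values were seen. Alternatives were FPKM, posterior mean TPM, CPM with no factor, with edgeR 4.0.16 TMM factors or DESeq2 1.42.0 size factors, TPM without spike-ins and mitochondrial genes, the transcript table, each pup alone, and other pseudocounts, filters and detection limits. Scripts ran in R 4.3.3 and Python 3.11.15 with Biopython 1.88, scipy 1.17.1, pandas 2.3.3, matplotlib 3.10.9 and numpy 2.4.6.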

Additional observations from a re-analysis of the deposited data

How the results depend on the processing

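Of 60 recomputed values that answer a comparison, 48 stayed within the spread between the pups or within 1.5 times the count, and 12 moved. Single pups and sums of the transcript table are not counted, since each of 2 values lies within 1 SD of their mean and the sums equal the gene table. Many of the 60 were also fixed in advance. FPKM, and TPM without spike-ins and mitochondrial genes, leave ratios between genes of 1 library as they are in TPM. TMM and DESeq2 factors cancel in such ratios, which therefore repeat the CPM values. The 48 of 60 is thus not a measure of how robust the results are. On CPM, which has no length scaling, Hba-a2 held 65.5% of the alpha copies (the same with TMM and DESeq2 factors), Alas2 was at 36.8 per 1000 of globin (the same with both factors), and the globin share of the library was 0.0880%, or 0.0856% with TMM factors and 0.0860% with DESeq2 factors. CPM and TPM start from the same expected reads and differ by definition in the division by effective length. Members past 2-fold were 4 on CPM (68.6% of all genes) against 2 in TPM (63.5%), 3 in FPKM (60.8%), and 2 with TMM or DESeq2 factors, where Alas2 stood in place of Hba-a1. On posterior mean TPM, which is never 0, the embryonic share of globin was 0.0129%. With a detection limit of 5 TPM, 8 red cell list genes were found in 1 pup against 13. With 1 pup alone, the alpha sum ranged from 1047 to 2250 TPM, the beta sum from 676 to 1008 TPM, their ratio from 1.55 to 2.23, the Hba-a2 share from 66.2% to 66.8%, the Hbb-bs share from 67.5% to 81.0%, the globin share from 0.172% to 0.326% and Alas2 from 15.8 to 5.38 per 1000 globin TPM. No paired analysis was possible because the libraries form 1 group.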
